A study of Mus musculus with 2 samples.

Results

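The dorsal wall of the telencephalon, the pallium, gives rise to the cerebral cortex, and 8 genes that pattern it were followed here in the E10.5 mouse brain with and without a working *Plzf*. They were the homeobox genes *Emx1*, *Emx2*, *Lhx2* and *Pax6*, the nuclear receptor gene *Nr2e1*, the DM domain gene *Dmrta2*, the zinc finger gene *Sp8* and the ligand gene *Wnt8b*. They were picked by gene symbol as patterning genes of the dorsal telencephalon, with earlier results of these data known, and are 8 of the 37071 gene names with a usable probe on the array. Every probe of each gene was kept, whether or not it was bright enough to be tested and whether or not the arrays gave the same direction.

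RNA came from the forebrain and midbrain of embryos at E10.5 according to the methods, and from the brain according to the sample labels. The wild type samples were of strain C57BL/6. The other samples came from luxoid mice, which carry a natural point mutation in *Plzf* (*Zbtb16*) that cuts the protein short. They are homozygous and are called *Plzf* lu/lu. The genetic background of the luxoid mice and the number of embryos behind each sample are not given in the sources used here, and the mutation is carried by every cell of these embryos, not by the telencephalon alone. Each of 2 Agilent arrays compared 1 wild type sample, labeled with Cy3, with 1 *Plzf* lu/lu sample, labeled with Cy5. The dyes were exchanged on 0 arrays, so dye and genotype cannot be told apart. The labels call the arrays biological replicates but do not name litters or pools, and p-values measure the spread between these arrays only.

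The pallium is patterned by signals from its edges. FGFs are released at the rostral midline, and Wnts and BMPs at the cortical hem on the dorsomedial edge. Between these sources the progenitors carry opposed gradients of transcription factors. Emx2, Lhx2, Dmrta2 and Emx1 are associated with caudal and medial territory, Pax6 with rostral and lateral territory, and Sp8 with the rostral midline. Nr2e1 keeps progenitors dividing and helps to set the border to the ventral telencephalon.

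As a check of the labels, the probe of *Zbtb16* gave a processed signal of 433 and 546 in wild type and of 172 and 211 in *Plzf* lu/lu, on array 1 and array 2 in that order, a log2 ratio of -1.33 and -1.37. The wild type sample of array 1 stood apart from the other 3 in part. It had 36936 gene spots well above background, against 43546 to 44318 in the others, and the summed signal of 12 erythroid genes was 473538 there, against 196057 to 253481. A gene was tested when all 4 channels had a processed signal above 200 and a signal-to-noise ratio of at least 5, which left 10600 genes. Ratios are given as *Plzf* lu/lu over wild type throughout. Their median over the tested genes was 0.02 (log2) for array 1 and -0.0047 for array 2. Having 2 arrays limits how precise any ratio can be.

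The members were measured with 14 probes of 60 bases, 6 of them for *Pax6*, 2 for *Nr2e1* and 1 for each of the other genes. All 8 genes had a probe well above background in all 4 channels, and 11 of the 14 probes were. *Emx1* was below the signal minimum, so 7 of the 8 genes were tested. The probes of *Pax6* and *Nr2e1* are shown because these are the 2 genes whose results can be read on more than 1 probe. *Pax6* makes alternative transcripts that differ by a small exon within the paired domain, which alters how the protein binds DNA. A pair of its probes crosses this splice junction, and the capitals mark the 10 bases they share just before the sequences part. Both are 60 bases long.

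*Pax6* probe A_55_P2719489, chr2:105524106-105525093 (mm9): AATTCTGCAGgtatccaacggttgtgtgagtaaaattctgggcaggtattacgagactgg
*Pax6* probe A_52_P469306, chr2:105524098-105524949 (mm9): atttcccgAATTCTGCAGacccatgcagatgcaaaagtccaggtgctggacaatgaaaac

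The placed bases of the pair of probes for *Nr2e1* lie within a short stretch of chromosome 10. Both probes are annotated to the same transcript, and their longest shared run was 5 bases, so they read it through different sequence. The first 30 bases of each are given. The annotation places 28 of the 60 bases of the second probe, so its interval is shorter than the probe.

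*Nr2e1* probe A_52_P47566, chr10:42281827-42281886 (mm9): ggcttagcataggatgagtcaaacttctct
*Nr2e1* probe A_51_P503042, chr10:42281777-42281804 (mm9): tccagtacccacttttccaagatggggcag

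In the 2 arrays together, 0 of the 7 tested members were higher in *Plzf* lu/lu by more than 1.3-fold on both, where 2.58% of all tested genes were. Likewise 0 were lower on both, against 0.736% of all genes. With limma and Benjamini-Hochberg adjustment over all 10600 genes, 0 members reached an adjusted p under 0.05, which 0.0283% of genes did (3 genes). Before adjustment, 4 members had p under 0.05 (*Nr2e1*, *Sp8*, *Dmrta2* and *Pax6*), all with a higher mean in *Plzf* lu/lu, where 15.7% of all genes were higher at that level.

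The members were sorted by the signs of their ratios alone. *Nr2e1*, *Dmrta2*, *Sp8* and *Pax6* had a ratio above 1 on both arrays. This held for 4 of the 7 tested members and for 37.3% of all genes. *Emx2*, *Lhx2* and *Wnt8b* had a ratio slightly below 1 on array 1 and well above 1 on array 2, and the untested *Emx1* did the same with a wider swing. The signs of the ratios were opposite in 3 of the 7 tested members and in 27.4% of all genes.

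**Figure D1:**
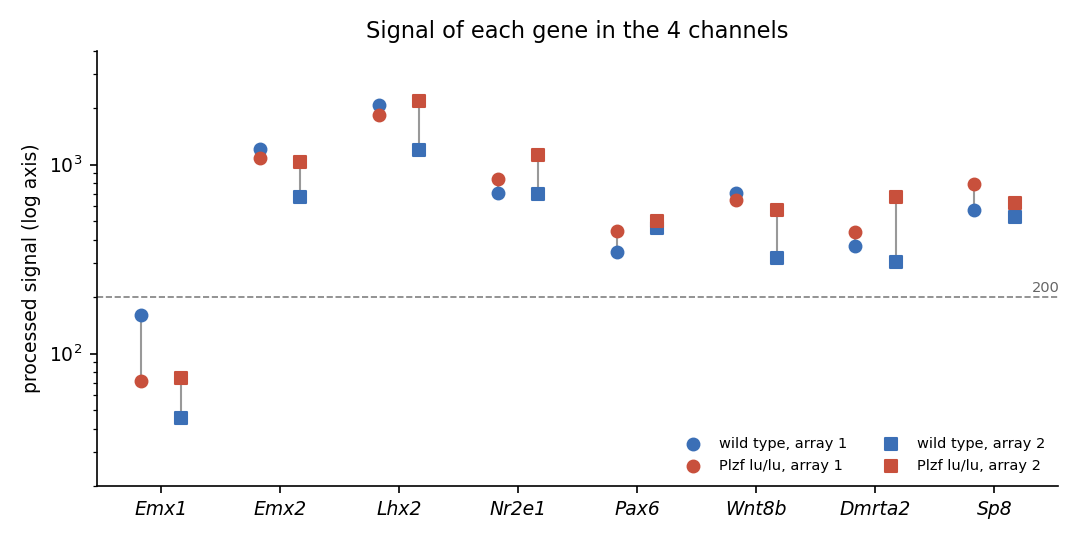
Processed signal (log axis, intensity units of the scanner) of the brightest probe of each of the 8 genes. Circles are array 1 and squares array 2, blue is wild type and red *Plzf* lu/lu, grey lines join the channels of 1 array, and the dashed line is the minimum of 200 for testing. Each point is 1 sample. *Emx1* lies under the line in all 4 channels, and the wild type square is the lowest point of its gene in 7 of the 8 genes, by little in *Nr2e1* and *Sp8*. The arrays were not scaled to one another, and the share of all tested genes with this order was not counted, so that number only describes the plot. Heights of different genes are not comparable, since each has its own probe.

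*Nr2e1* encodes an orphan nuclear receptor that represses differentiation genes in neural progenitors. Its brightest probe read 706 and 699 in wild type and 840 and 1117 in *Plzf* lu/lu, on arrays 1 and 2. The wild type samples were nearly level, and both *Plzf* lu/lu samples lay above them with no overlap. The log2 ratio was 0.25 on array 1 and 0.68 on array 2, with a mean of 0.46 (SD 0.30, n = 2 arrays) and an adjusted p of 0.0892 from limma. In fold terms this was 1.19 and 1.60, so the gene missed the 1.3-fold level on array 1.

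The other probe of *Nr2e1* read 310 and 295 in wild type and 429 and 567 in *Plzf* lu/lu. Again the wild type samples were close and the genotypes did not overlap. Its log2 ratio was 0.47 on array 1 and 0.94 on array 2, or 1.38-fold and 1.92-fold, beyond 1.3-fold on both arrays. When each passing probe was tested on its own, 2.28% of 13186 probes were higher in this way, and the adjusted p of this probe from limma was 0.0530. *Nr2e1* is also among the genes that the study listed from these arrays, so its direction here is not independent evidence. The study's list gives it 1.38 and 1.92, the fold values of this other probe. The count of members beyond 1.3-fold on both arrays, given above, used the brightest probe only and so left *Nr2e1* out.

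*Dmrta2* (also called *Dmrt5*) encodes a transcription factor of caudomedial pallial progenitors that the hem requires. At chr4:109656028-109656087 (mm9) it read 371 and 306 in wild type and 441 and 676 in *Plzf* lu/lu, with no overlap of the genotypes. The arrays gave log2 ratios of 0.25 on array 1 and 1.14 on array 2, the latter a 2.21-fold difference. The mean was 0.70 (SD 0.63, n = 2 arrays) with an adjusted p of 0.108 from limma. Among the brightest probes of the 8 genes its mean was the highest, level with the other probe of *Nr2e1*, and the arrays differed by 0.89 on the log2 scale, more than the mean itself.

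*Sp8* encodes a zinc finger factor that sustains FGF signaling at the rostral midline. At chr12:120090880-120090939 (mm9) it read 573 and 531 in wild type and 787 and 624 in *Plzf* lu/lu, and the genotypes did not overlap here either. Its log2 ratio was 0.46 on array 1 and 0.23 on array 2, with a mean of 0.35 (SD 0.16, n = 2 arrays) and an adjusted p of 0.0908 from limma. *Sp8* was the single tested member beyond 1.3-fold on array 1, where 8.25% of all genes were. *Sp8* and *Nr2e1* were the 2 of 7 members with an adjusted p under 0.1, which 12.2% of all genes had. Both *Plzf* lu/lu signals were above both wild type signals in 3 of the 7 members (*Nr2e1*, *Dmrta2* and *Sp8*), and in 30.5% of all tested genes.

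*Pax6* encodes a paired and homeodomain factor that drives cortical progenitors toward neurogenesis and holds the dorsal side of the border to the ventral telencephalon. Its brightest probe, at chr2:105537277-105537336 (mm9), read 345 and 464 in wild type and 446 and 501 in *Plzf* lu/lu. The *Plzf* lu/lu sample of array 1 lay below the wild type sample of array 2, so the genotypes overlapped. The log2 ratio was 0.37 on array 1 and 0.11 on array 2, with a mean of 0.24 (SD 0.19, n = 2 arrays) and an adjusted p of 0.166 from limma. The ratio on array 1 was 1.295-fold, just under the level of 1.3.

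The other *Pax6* probes were too dim to be tested. The next brightest, at chr2:105535591-105536463 (mm9) and so spanning an intron, had log2 ratios of 0.41 on array 1 and 0.01 on array 2. The probe for transcripts without the small exon, A_55_P2719489, read 16.1 and 23.9 in wild type and 21.9 and 26.4 in *Plzf* lu/lu, with log2 ratios of 0.45 and 0.14. It was well above background in all 4 channels. The probe for transcripts with the small exon, A_52_P469306, was well above background in 0 channels, so no ratio is given for it and the balance of the 2 forms could not be measured. Of the 6 probes, 2 were above background in 0 channels. The other 4 were higher in *Plzf* lu/lu on both arrays, but probes of 1 gene read the same RNA and are not replicates.

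**Figure D2:**
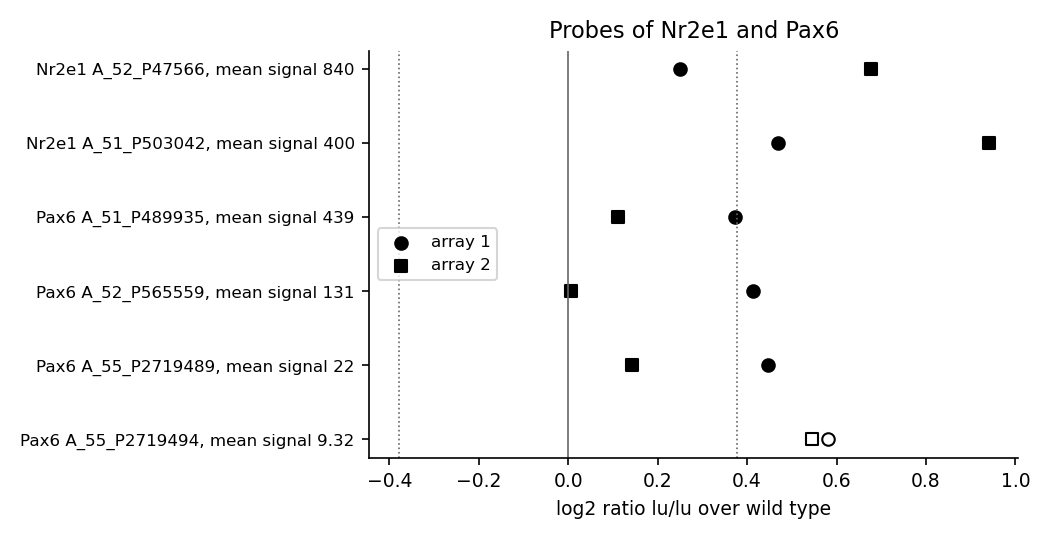
Log2 of *Plzf* lu/lu over wild type (x axis) for the probes of *Nr2e1* and *Pax6* that were well above background in at least 1 channel, with the mean signal of each probe in its label. Circles are array 1 and squares array 2, open symbols mark the probe that was above background in 3 of the 4 channels, and dotted lines mark 1.3-fold. Both *Nr2e1* probes lie further right on array 2, and the 3 brightest *Pax6* probes lie further right on array 1.

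*Emx2* encodes a homeodomain factor that specifies caudomedial cortex and the hippocampal field. At chr19:59539650-59539709 (mm9) it read 1212 and 675 in wild type and 1084 and 1037 in *Plzf* lu/lu. The *Plzf* lu/lu samples were nearly level and lay between the wild type samples, which differed widely. The log2 ratio was -0.16 on array 1 and 0.62 on array 2, with a mean of 0.23 (SD 0.55, n = 2 arrays) and an adjusted p of 0.439 from limma.

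*Lhx2* encodes a LIM homeodomain factor that commits progenitors to cortex and keeps them from hem fate. At chr2:38224933-38224992 (mm9) it read 2070 and 1196 in wild type and 1828 and 2177 in *Plzf* lu/lu, so the highest and the next highest sample were of different genotypes. This gave log2 ratios of -0.18 on array 1 and 0.86 on array 2. The mean was 0.34 (SD 0.74, n = 2 arrays), less than its SD, and the adjusted p from limma was 0.376.

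*Wnt8b* encodes a Wnt ligand made in the hem and the medial pallium next to it. At chr19:44588615-44588674 (mm9) it read 703 and 320 in wild type and 647 and 572 in *Plzf* lu/lu. The low wild type sample of array 2 was the outlying value. Its log2 ratios were -0.12 on array 1 and 0.84 on array 2, with a mean of 0.36 (SD 0.68, n = 2 arrays) and an adjusted p of 0.321 from limma.

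*Emx1* encodes the homeodomain factor most restricted to the pallium among these genes. At chr6:85154062-85154121 (mm9) it read 159 and 45.6 in wild type and 71.7 and 74.0 in *Plzf* lu/lu. The *Plzf* lu/lu samples were level and lay between a high and a low wild type sample. The log2 ratio was -1.15 on array 1 and 0.70 on array 2 (mean -0.23, SD 1.31, n = 2 arrays). The probe was well above background in all 4 channels but under the signal minimum in each, and was not tested.

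**Figure D3:**
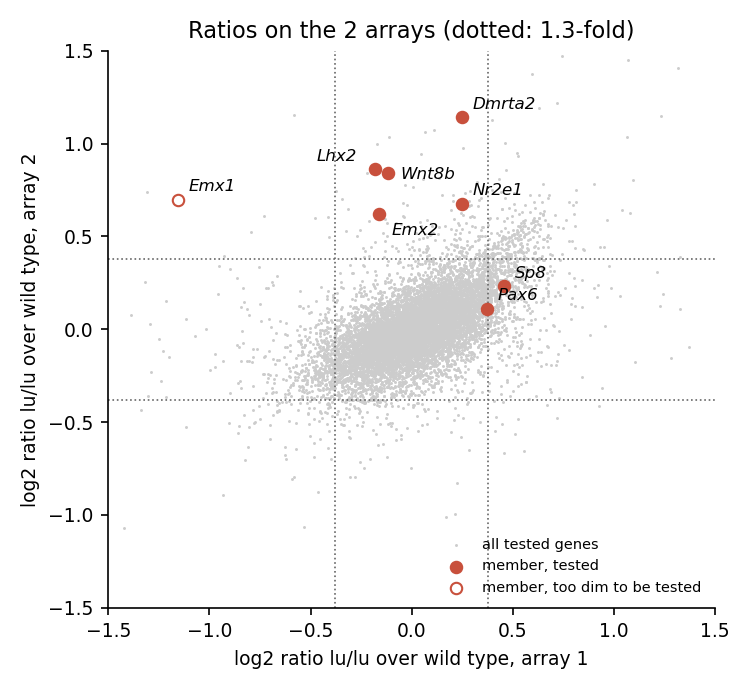
Log2 of *Plzf* lu/lu over wild type on array 1 (x axis) and array 2 (y axis). Grey dots are the tested genes within the range of the axes, red dots the 7 tested members, the open circle *Emx1*, which was too dim to be tested, and dotted lines mark 1.3-fold in either direction. No member lies in the upper right or lower left corner. *Emx2*, *Lhx2* and *Wnt8b* lie left of 0 on array 1 and above the 1.3-fold line on array 2.

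Across the members the ratios were higher on array 2. The median log2 ratio of the 7 tested members was 0.25 on array 1 and 0.68 on array 2. On array 2 alone, 5 of the 7 (*Emx2*, *Lhx2*, *Nr2e1*, *Wnt8b* and *Dmrta2*) were higher in *Plzf* lu/lu by more than 1.3-fold, where 4.5% of all genes were. The ratio on array 2 exceeded that on array 1 by more than 1.5-fold in 4 of the 7 (*Emx2*, *Lhx2*, *Wnt8b* and *Dmrta2*), and in 1.25% of all genes. *Pax6* and *Sp8* went the other way, with a lower ratio on array 2.

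Each array holds its own pair of samples, so the difference between arrays can be followed in each genotype. Signals were compared between arrays relative to the median tested gene of the same channel. The wild type signal was lower on array 2 by more than 1.3-fold in 3 of the 7 tested members, where 2.09% of all genes were. These were *Emx2*, with a log2 difference of array 2 minus array 1 of -0.82, *Lhx2* with -0.76 and *Wnt8b* with -1.11. *Emx1*, not tested, had -1.78. In the *Plzf* lu/lu channel the same 4 genes had log2 differences of -0.014, 0.30, -0.13 and 0.10, in that order, all within 1.3-fold. In the 4 genes whose arrays gave opposite signs, the wild type samples differed more than the *Plzf* lu/lu samples did. Over all tested genes the SD of this log2 difference was also larger in wild type (0.21) than in *Plzf* lu/lu (0.15). How often the same holds among all genes with opposite signs was not counted. Marker genes of some other tissues differed between the same wild type samples. The median log2 difference was -1.67 for erythroid (7 tested genes), -0.22 for neuron (11) and 0.47 for surface ectoderm genes (8). For eye and hypothalamus genes it was 0.88, from 3 tested genes. Other lists differed less, with -0.04 for further pallial factors, -0.05 for cortical hem, -0.02 for rostral FGF and 0.13 for ventral telencephalon genes. Midbrain and diencephalon genes had 0.20, endothelium 0.20, mesenchyme and neural crest -0.09 and cofactors 0.02. The part of any of these in the values of the members was not tested.

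*Dmrta2* and *Nr2e1* behaved differently. Their *Plzf* lu/lu signal was higher on array 2, by 0.67 and 0.46 on the log2 scale, and their wild type signal differed by -0.25 and 0.01. They were the 2 of 7 members with a *Plzf* lu/lu signal more than 1.3-fold higher on array 2, where 1.94% of all genes were. *Pax6* was the 1 member of 7 whose wild type signal was more than 1.3-fold higher on array 2 (0.45 on the log2 scale), against 2.41% of all genes. *Sp8* differed least between the wild type samples after *Nr2e1*, by -0.08, and its *Plzf* lu/lu signal was lower on array 2 by a log2 difference of -0.28.

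**Figure D4:**
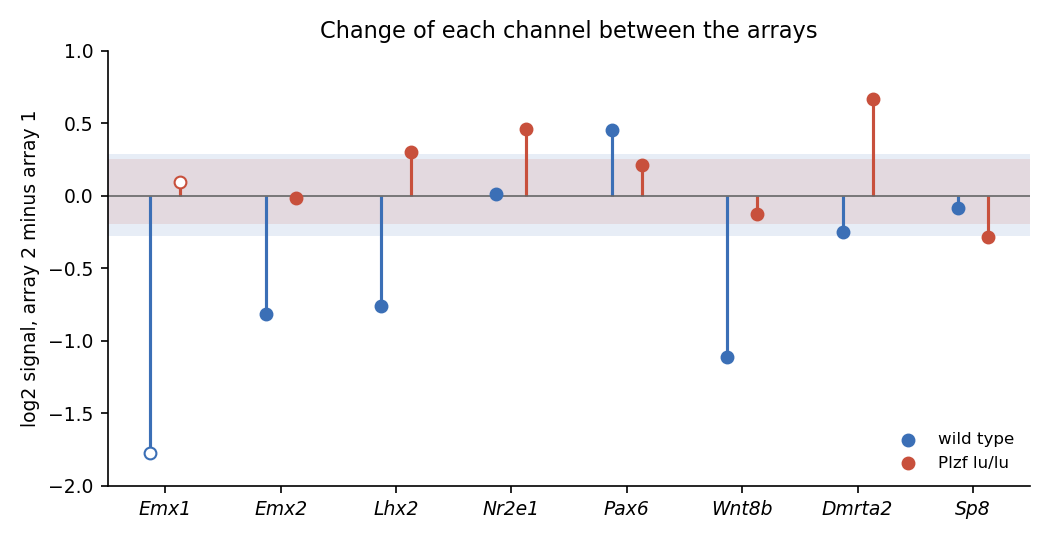
Difference in log2 signal between array 2 and array 1 (y axis) for each of the 8 genes, relative to the median tested gene of the channel. Blue is wild type, red *Plzf* lu/lu, open circles mark *Emx1*, which was not tested, and the shaded bands span the 5th to 95th percentile of all tested genes (-0.27 to 0.29 in wild type and -0.20 to 0.25 in *Plzf* lu/lu). The blue stems of *Emx1*, *Emx2*, *Lhx2* and *Wnt8b* reach far below the band.

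The promoters of the 3 tested genes with opposite signs are shown because their wild type signals were low together on array 2. The sequences are the 250 bases before the start in RefSeq (GRCm38.p6), and all 8 members matched the RefSeq promoter table, with 12 starts in all. Capitals mark matches, on either strand, to TAATTA, the core bound by many homeodomain proteins, to GGGCGG, the GC box bound by Sp factors, or to CTTTGAT, a TCF/LEF motif of Wnt signaling. Overlapping matches run together.

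*Emx2*, chr19:59458440-59458689 (+): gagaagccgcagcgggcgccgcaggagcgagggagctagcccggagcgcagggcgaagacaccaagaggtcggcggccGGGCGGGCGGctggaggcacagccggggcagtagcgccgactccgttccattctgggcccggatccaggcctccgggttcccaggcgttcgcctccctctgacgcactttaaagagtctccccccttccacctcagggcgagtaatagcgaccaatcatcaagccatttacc
*Lhx2*, first start, chr2:38339031-38339280 (+): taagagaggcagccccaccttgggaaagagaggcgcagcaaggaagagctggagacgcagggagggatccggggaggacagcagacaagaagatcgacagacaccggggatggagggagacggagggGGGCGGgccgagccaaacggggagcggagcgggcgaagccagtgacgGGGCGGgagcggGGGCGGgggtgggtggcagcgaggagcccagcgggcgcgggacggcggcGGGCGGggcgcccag
*Wnt8b*, chr19:44493222-44493471 (+): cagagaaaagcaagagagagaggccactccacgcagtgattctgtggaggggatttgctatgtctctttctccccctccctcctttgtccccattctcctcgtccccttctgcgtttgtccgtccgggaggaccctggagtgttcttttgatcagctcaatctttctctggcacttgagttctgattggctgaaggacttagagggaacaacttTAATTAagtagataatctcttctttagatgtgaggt

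No motif was marked in all 3 promoters. *Wnt8b* held TAATTA, which was present in 2 of the 12 member promoters (the other belonged to *Sp8*) and in 4.84% of all 32851 promoters of this length. *Emx2* and the first start of *Lhx2* held the GC box, present in 4 of the 12 (with 1 each of *Emx1* and *Sp8*) and in 32.7% of all. The other start of *Lhx2*, not shown, held 0 matches to any of these motifs. Which start makes the RNA that the probe reads was not tested. CTTTGAT was present in 0 of the 12 and in 3.21% of all. The GC content was 67.2% for *Emx2*, 72.8% for this start of *Lhx2* and 48.4% for *Wnt8b*, against a median of 52.4% over all promoters. These matches describe the letters of the windows only.

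Other genes of the pallium gave the context. Of 20 further pallial progenitor and area factors, 10 were tested, 2 were higher in *Plzf* lu/lu by more than 1.3-fold on both arrays and 0 were lower, and the median log2 ratio was 0.19 on array 1 and 0.30 on array 2. *Nr2f2*, an area factor of caudal cortex, had 0.48 and 0.65 (adjusted p = 0.0510 from limma).

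Genes of these edge signals gave mixed values. Their RNA came from forebrain and midbrain together, so the values are not those of the pallial edges alone. Of 19 genes of the cortical hem and dorsal midline, the source region of *Wnt8b*, 12 were tested, 3 were higher beyond 1.3-fold on both arrays and 1 was lower. *Rspo3*, which amplifies Wnt signaling at the hem, had log2 ratios of 0.61 and 0.69, whereas its relative *Rspo1* had -0.85 and -0.52. *Bmp4*, a BMP ligand of the midline, had 0.49 and 0.40, and *Dkk3*, of the Dickkopf family, had 0.93 and 0.44. These counts leave out genes too dim to be tested, which went both ways. Among them *Wnt3a* had -1.33 and -1.11 and *Rspo2* had 0.11 and 0.86, both well above background in all 4 channels. Of 15 genes of rostral FGF signaling, the pathway of *Sp8*, 12 were tested, and 1 was higher on both arrays, the ETS factor *Etv1* with 1.09 and 0.80, and 0 were lower.

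Genes on the ventral side of the *Pax6* border were mostly too dim to be tested. Of 17 genes of the ventral telencephalon 4 were tested, and 3 were higher on both arrays and 0 lower. They included *Dlx2* (0.51 and 0.42) and *Six3* (0.62 and 0.47), homeobox factors of the ventral and rostral forebrain. Of 14 cofactors of Lhx2, Nr2e1 or Pax6, 11 were tested, with 3 higher on both arrays and 0 lower. *Lmo1* (0.52 and 0.95) and *Lmo4* (0.74 and 0.40) encode LIM-only proteins, which compete with Lhx2 for its partner, and *Sox2* (0.44 and 0.47) is the progenitor factor that binds DNA with Pax6. In limma, 0 genes of any of these lists had an adjusted p under 0.05, and among the tested genes of the lists 6 of 10 pallial, 4 of 12 hem, 5 of 12 FGF, 3 of 4 ventral and 7 of 11 cofactor genes were higher at an unadjusted p under 0.05, with 0, 2, 2, 0 and 1 lower. Over all tested genes, 15.7% were higher and 12% lower at that level.

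Genes of other tissues also differed between the samples, and in a bulk sample fewer cells of a type and less RNA per cell cannot be told apart. The median log2 ratio of the 7 tested erythroid genes of 12 was -0.93 on array 1 and 0.12 on array 2. All 12 were well above background in every channel. The 11 tested neuron genes of 18 had medians of 0.14 and 0.72, also higher on array 2, with summed signals of the 18 genes of 11690 and 10162 in wild type and 12777 and 17079 in *Plzf* lu/lu. *Elavl4* (0.40 and 0.75) and *Stmn3* (0.40 and 1.12), which mark young neurons, were the neuron genes beyond 1.3-fold on both arrays. The 8 tested surface ectoderm genes of 12 had medians of 0.45 and -0.24, and the 3 tested eye and hypothalamus genes of 12, a territory where *Pax6*, *Lhx2* and *Nr2e1* are also active, had 1.28 and -0.10. *Vax2*, of the ventral eye, was beyond 1.3-fold on both (0.43 and 0.41), whereas *Cdh1* of the ectoderm (1.11 and -0.18) and *Alas2* of red cells (-1.20 and -0.15) were not.

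The neighboring brain regions were described in the same way. The 10 tested genes of 19 for midbrain and diencephalon had medians of -0.04 and -0.11, with 2 higher and 2 lower on both arrays. The lower ones were *En2*, a factor of the midbrain-hindbrain boundary, with -1.86 and -1.25, and *Pax3*, a dorsal factor of the midbrain, with -0.40 and -0.70. The higher ones were *Tcf7l2* (0.78 and 0.48) and *Otx2* (0.38 and 0.39). Of 11 hindbrain genes, 0 were bright enough to be tested and 3 were well above background in all channels, with summed signals between 339 and 448. The 13 tested genes of 16 for mesenchyme and neural crest had medians of 0.09 and -0.07, with *Tfap2b* at 0.99 and 0.22. The 4 tested endothelial genes of 12 had -0.43 and -0.74, with *Emcn* (-0.63 and -0.68) and *Plvap* (-0.58 and -0.79), both vessel surface proteins, lower on both arrays. In limma 0 genes of these other lists had an adjusted p under 0.05, but some differed at an unadjusted p under 0.05, where 15.7% of all genes were higher and 12% lower. For neurons 7 of 11 were higher and 0 lower, for midbrain and diencephalon 2 of 10 were higher and 4 lower, and for mesenchyme and neural crest 3 of 13 were higher and 4 lower. For endothelium 0 of 4 were higher and 4 lower, for erythroid 0 of 7 were higher and 1 lower, for eye and hypothalamus 1 of 3 was higher and 0 lower, and for surface ectoderm 0 of 8 differed.

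**Figure D5:**
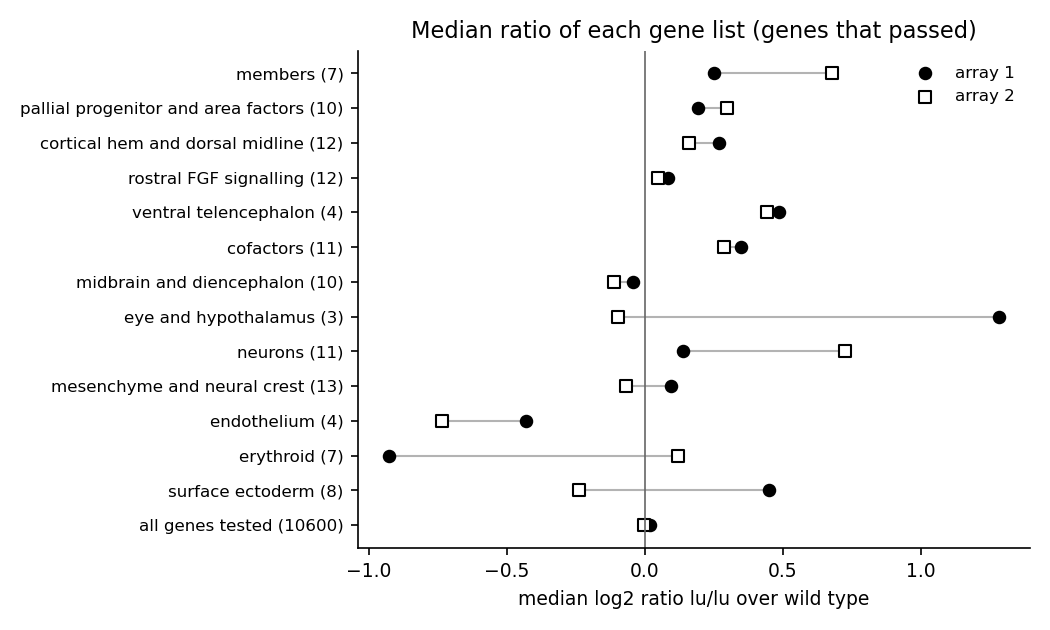
Median log2 of *Plzf* lu/lu over wild type (x axis) over the tested genes of each list, with their number in parentheses, and over all 10600 tested genes. Filled circles are array 1 and open squares array 2. The members move from 0.25 to 0.68, neuron genes move the same way, and erythroid, surface ectoderm and eye genes have medians of opposite sign on the 2 arrays.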

How the data were processed

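The 8 genes and all gene lists were chosen with earlier results of these data known. Per the methods, labeled cRNA was hybridized to Agilent SurePrint G3 mouse arrays. The authors deposited Feature Extraction 10.7.3.1 output with processed intensity, background-subtracted and dye-normalized by LOWESS inside each array, and raw intensities of spots and local background. They deposited log10 of Cy5 over Cy3, made by the authors from the processed intensities. The log2 form of that ratio was deposited as well. Arrays were not scaled to one another.

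Here control and outlier spots (137 and 126) were dropped, log2 values of repeated spots averaged, and each gene represented by its brightest probe. Signal-to-noise was the spot signal less local background, over the SD of background pixels. Log2 ratios were fitted with limma 3.58.1 in R 4.3.3 (intercept, eBayes, Benjamini-Hochberg). A single gene has 1 residual degree of freedom, so its variance is largely borrowed from other genes. The fit and the 1.3-fold rule were also run on simulated arrays with independent noise and a known change larger than any member's mean. That run does not show how the fit performs on these arrays. Further work used Python 3.11.15 (pandas 2.3.3, numpy 2.4.6, matplotlib 3.10.9) and version 1.17.8 of the R package data.table.

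Named genes were the 8 members with every probe, *Zbtb16*, and in each list up to 5 genes beyond 1.3-fold on both arrays in one direction, or, in a list without one, the tested gene with the largest mean. Genes most like a member were to be named for members beyond 1.3-fold on both arrays, and there were 0. Not every gene selected this way is reported here, and *Wnt3a* and *Rspo2* were added after seeing the data. Probe positions are in mm9, from the deposited annotation. Exon and UTR positions in that build were not used here. Alternatives changed the background correction, normalization, ratio source, filter, probe rule, threshold, variance model and probe GC trend.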

Additional observations from a re-analysis of the deposited data

How the results depend on the processing

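With 2 arrays the members' values rest on which array is read. The count of members higher beyond 1.3-fold, 0 on both arrays, ranged from 1 to 5 with either array left out (*Sp8* without array 2, and *Emx2*, *Lhx2*, *Nr2e1*, *Wnt8b* and *Dmrta2* without array 1). Leaving out array 2 turned the mean negative in *Emx2*, *Lhx2* and *Wnt8b*, and leaving out array 1 turned that of *Emx1* positive, to 0.70. The count was 1 when any passing probe could stand for a gene (*Nr2e1* through its other probe, an alternative added after seeing the data). In every other alternative run it was 0, as was the count of lower members and of members at a limma adjusted p under 0.05. The sign of each member on each array was the same under normexp with loess, normexp with centring, the deposited log2 table and removal of the GC trend.

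Over the alternatives with both arrays, the mean log2 ratio ranged from 0.19 to 0.25 for *Emx2*, 0.32 to 0.35 for *Lhx2*, 0.39 to 0.70 for *Nr2e1*, 0.13 to 0.24 for *Pax6*, 0.28 to 0.40 for *Wnt8b*, 0.48 to 0.70 for *Dmrta2*, 0.29 to 0.36 for *Sp8* and -0.54 to -0.13 for *Emx1*. The lowest limma adjusted p among these was 0.0530, for the other probe of *Nr2e1*, and the highest 0.878, for *Emx1*. This leaves out the fit with an intensity trend, for which only the count of members under 0.05 was kept. Among all genes, the 274 higher and 78 lower became 455 and 120 under normexp with centring, 586 and 481 when well above background replaced the signal minimum, and 1695 and 2173 with no filter. The 3 genes at a limma adjusted p under 0.05 became 1514 under normexp with centring, 393 with an intensity trend, 168 with the GC trend removed, 233 with each probe on its own and 0 under normexp with loess, the deposited table, well above background, no filter or the mean over probes. The cause was not tested. The signal minimum kept *Emx1* and 5 of the 6 *Pax6* probes out of the test, and 3 of these *Pax6* probes fell short of background in at least 1 channel. The ratios are within-array differences, so the fit is already paired by array.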
